A study of Mus musculus with 47 samples.

Results

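The 8 genes described here are those with which hypothalamic neurons make their transmitters and fill vesicles with them. They are Th, Ddc, Slc18a2, Hdc, Gad1, Gad2, Slc32a1 and Slc17a6. They were chosen by symbol, as genes that mark dopamine, histamine, GABA and glutamate neurons, and all 8 were among the 14221 genes of the count table. mRNA was sequenced from the hypothalamus of 47 male ob/ob mice labelled 11 weeks of age, which all lack leptin, with 1 library per mouse. On Day 1 after the injection, 10 mice had received 3 µg of fibroblast growth factor 1 (FGF1) into a cerebral ventricle (icv) and 4 had received vehicle. On Day 5 there were 9 FGF1-treated mice and, in vehicle, 7 with the label Non-Diabetic and 7 with the label Diabetic. On Day 42 there were 5 mice per group. All vehicle-treated mice are labelled as pair-fed to the FGF1-treated mice, and those of Days 1 and 42 as non-diabetic. All groups carry the same Lep mutation, so no comparison includes mice with leptin, and in whole tissue fewer neurons of a type and less mRNA per neuron cannot be told apart.

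Dopamine is made from tyrosine by tyrosine hydroxylase, encoded by Th and the rate-limiting step, followed by aromatic L-amino acid decarboxylase, encoded by Ddc. Histamine is made from histidine by the product of Hdc, which in the brain marks the neurons of the tuberomammillary nucleus. Both amines are loaded into vesicles by the vesicular monoamine transporter VMAT2, encoded by Slc18a2. GABA is made from glutamate by the decarboxylases GAD67 and GAD65, encoded by Gad1 and Gad2, and is loaded by the product of Slc32a1. Slc17a6 encodes VGLUT2, which loads glutamate and marks most excitatory neurons of the hypothalamus. Dopamine neurons of the arcuate and periventricular nuclei inhibit prolactin release, while the dopamine neurons of the midbrain, which express far more of the dopamine transporter Slc6a3, lie just behind the hypothalamus.

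Counts per library ran from 1243280 to 47082403, with group medians of 8937263 to 10052056 on Day 5 and higher medians on Days 1 and 42. In the deposited sample sheet each day has its own preparation code, which cannot be told apart from the day, and levels are not compared between days by a test. The summed level of 10 pan-neuronal markers, of which Map2 and Snap25 were highest, was 4882 to 8215 CPM (read counts brought to a common library size, scaled by the trimmed mean of M-values, TMM) over all 47 libraries, and 17 of 18 hypothalamic markers were in the table, led by Pmch and Avp. None of the 3 serotonin neuron markers and none of the 8 mast cell markers were among the genes of the table. Such cells are among the others in which Hdc, Slc18a2 or Ddc are known to be expressed. A marker missing from the table does not show that its cells were absent from the tissue. Of 7 markers of midbrain dopamine neurons, Slc6a3, Aldh1a1, Lmx1b and Nr4a2 were measured, none at 0 in any library, and Pitx3, En1 and Foxa2 were not in the table. Their summed level was 62.3 to 160.3 CPM on Day 1, 83.8 to 347 CPM on Day 5 and 84.4 to 482 CPM on Day 42. Aldh1a1 was the highest of the 4 in mean. In vehicle replicate 2 of Day 1, the library with the sum of 160.3 CPM, it was at 131 CPM and Slc6a3 at 12.3 CPM. The sum therefore does not stand for Slc6a3.

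The promoters of Th and Slc18a2 are shown because these genes showed the largest differences between groups and varied together; they were chosen after their values had been seen. Among the 10 promoter windows that RefSeq gives for the 8 genes (GRCm38.p6, 250 bases before to 50 after each start of transcription), these were the 2 that held the full cAMP response element TGACGTCA, searched on both strands and shown in capitals. Of all 32851 windows, 1.79% held it. The stretch of Th is chr7:142899996-142900115 on the minus strand and ends at the base before the start. That of Slc18a2 is chr19:59260762-59260881 on the plus strand and ends 4 bases past the start, where the element ends.
Th: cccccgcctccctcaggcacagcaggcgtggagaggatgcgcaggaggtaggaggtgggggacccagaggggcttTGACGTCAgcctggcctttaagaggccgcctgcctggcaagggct
Slc18a2: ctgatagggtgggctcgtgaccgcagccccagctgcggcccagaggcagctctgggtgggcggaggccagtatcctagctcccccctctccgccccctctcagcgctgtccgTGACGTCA
The element starts 45 bases before the start of Th and 4 bases before that of Slc18a2. The AP-1 site TGANTCA was found in the window of Th and in 1 window of Ddc, against 7.81% of all windows. The letters TATAAA of a TATA box, on either strand, started 68 bases before 1 start of Ddc and 141 bases before that of Gad1. They were in 13.6% of all windows. The E box CANNTG was found in at least 1 window of each member except Ddc, but it is also found in 72.3% of all windows. These matches describe letters in the windows, and no binding was measured.

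In GRCm38, Th (chr7:142892752-142931128) and Slc17a6 (chr7:51622006-51671119) lie on chromosome 7, and Hdc (chr2:126593667-126619299), Gad1 (chr2:70553072-70602014), Gad2 (chr2:22622205-22693874) and Slc32a1 (chr2:158610767-158615748) on chromosome 2. Ddc is at chr11:11814101-11898144 and Slc18a2 at chr19:59260896-59296012. Per kilobase of exon, Gad2 (mean over 47 libraries 79.8 CPM per kb), Slc17a6 (64.7) and Gad1 (53.4) were the highest in each of the 7 groups. Th (17.7), Ddc (16.8), Slc32a1 (16.2) and Slc18a2 (11.5) followed, and Hdc (5.75) was the lowest in each group. This length joins all annotated exons of a gene. It was 7639 bases for Gad1 and 4461 for Ddc, where the longest transcripts have 3601 and 2018. For Gad2 it was 5876 bases against 5744, and for Slc17a6 5399 against 4137, so the order of the members depends on the length used. Within the upper range and at this length, Gad1 exceeded Slc17a6 in mean on Day 1 and Slc17a6 exceeded Gad1 on Days 5 and 42. These 2 neighbours overlapped between mice in 6 of the 7 groups, the exception being the FGF1-treated mice of Day 5. Th, Ddc, Slc32a1 and Slc18a2 also overlapped as neighbours in every group, and in both vehicle groups of Day 5 the highest mouse for Th reached the lowest for Gad1. Hdc stood below all mice of its neighbour Slc18a2 in 5 groups and overlapped with it in the FGF1-treated mice of Days 1 and 42. In raw counts the lowest value of any member in any library was 38, for Th in the library with the fewest counts, where counting error is of the order of the spread between mice. The exons of Slc18a2 overlap those of Gm29261 and the exons of Slc32a1 overlap those of Gm14205, both on the opposite strand, in the GENCODE annotation of GRCm38. The libraries were made with a stranded kit but the counting setting is not given in the sources used here, so their reads may be shared with these partners.

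**Figure D1:**
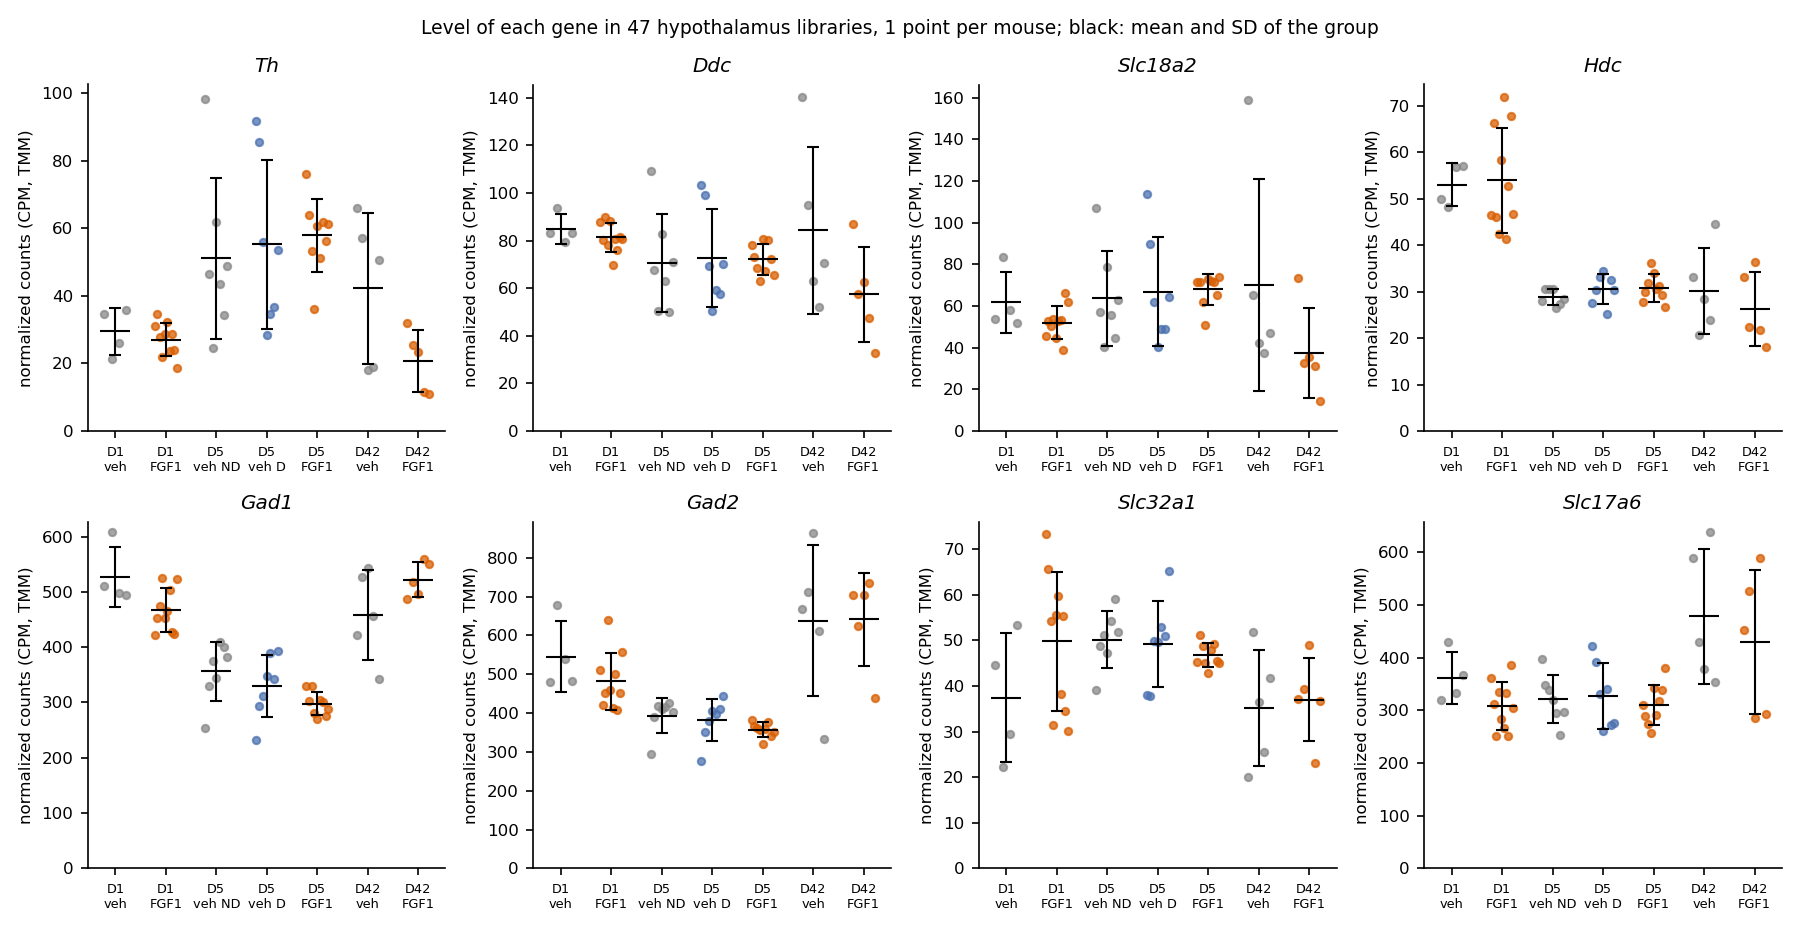
Normalized counts (CPM, TMM-scaled, linear axis from 0) of the 8 genes, with 1 point per mouse in 7 groups (veh, vehicle; ND, labelled non-diabetic; D, labelled diabetic) and black bars for mean and SD. Th, Ddc and Slc18a2 spread most in the vehicle-treated mice of Days 5 and 42, Hdc is above 40 CPM in all 14 mice of Day 1, and no gene separates FGF1 from vehicle completely on any day.

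The spread between mice of a group differed among the members. The coefficient of variation within a group was 5.78 to 30.9% for Hdc, 6.17 to 17.9% for Gad1, 5.13 to 30.4% for Gad2, 5.71 to 37.9% for Slc32a1 and 12.2 to 31.9% for Slc17a6. It was 18.4 to 52.8% for Th, 7.25 to 41.5% for Ddc and 11.0 to 72.3% for Slc18a2. In the vehicle-treated mice of Day 42, Slc18a2 ranged 4.24-fold between the lowest and the highest mouse, and in the FGF1-treated mice 5.05-fold.

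Whether icv FGF1 changed these genes was tested on each day against vehicle (edgeR quasi-likelihood F test on all genes, Benjamini-Hochberg). On Day 1, none of the 8 passed an adjusted p of 0.05, while 45% of all genes did and 19.5% also had an absolute log2 fold change above 0.5. None had an unadjusted p under 0.05 in this fit either, against 51.6% of all genes, and DESeq2 and limma called none. The log2 fold changes of 6 members lay between -0.24 and -0.067. Gad1 was at 494.7 to 608 CPM in vehicle (median 504) and at 422 to 525 CPM after FGF1 (median 459), with 7 of 10 FGF1-treated mice below all 4 vehicle-treated mice. Its log2 fold change was -0.17 (SE 0.10, 95% interval -0.38 to 0.032, adjusted p = 0.17). Slc17a6 was at 320 to 430 CPM in vehicle (median 349.6) and 251 to 385 CPM after FGF1 (median 308), a log2 fold change of -0.24 (interval -0.54 to 0.068, adjusted p = 0.20). Hdc, at 48.2 to 57.1 CPM in vehicle, had FGF1-treated mice on both sides of that range, 5 below and 4 above it, and a log2 fold change of 0.036. Hdc turned to -0.041 under quantile normalization, and Th, Ddc, Gad1 and Gad2 turned to between 0.038 and 0.15 when libraries were scaled to the pan-neuronal markers.

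Slc32a1 had the largest difference of Day 1 and was the only member, apart from Hdc, with a higher mean after FGF1. The 4 vehicle-treated mice had 44.6, 22.1, 29.5 and 53.4 CPM, and the 10 FGF1-treated mice 30.0 to 73.3 CPM with a median of 54.7. The groups overlapped, with 6 FGF1-treated mice above all vehicle-treated mice and 2 vehicle-treated mice below all others. The log2 fold change was 0.38 (SE 0.20, interval -0.036 to 0.79, adjusted p = 0.13). It passed the test without vehicle replicate 4 (0.60, adjusted p = 0.026) and when libraries were scaled to the pan-neuronal markers (0.60, adjusted p = 0.022), a scaling that moved the median of all genes by 0.22. It was 0.19 (adjusted p = 0.52) without vehicle replicate 2, the library with the lowest GC trend of Day 1 as defined with the covariation results, and 0.15 (adjusted p = 0.32) after a correction for transcript GC.

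**Figure D2:**
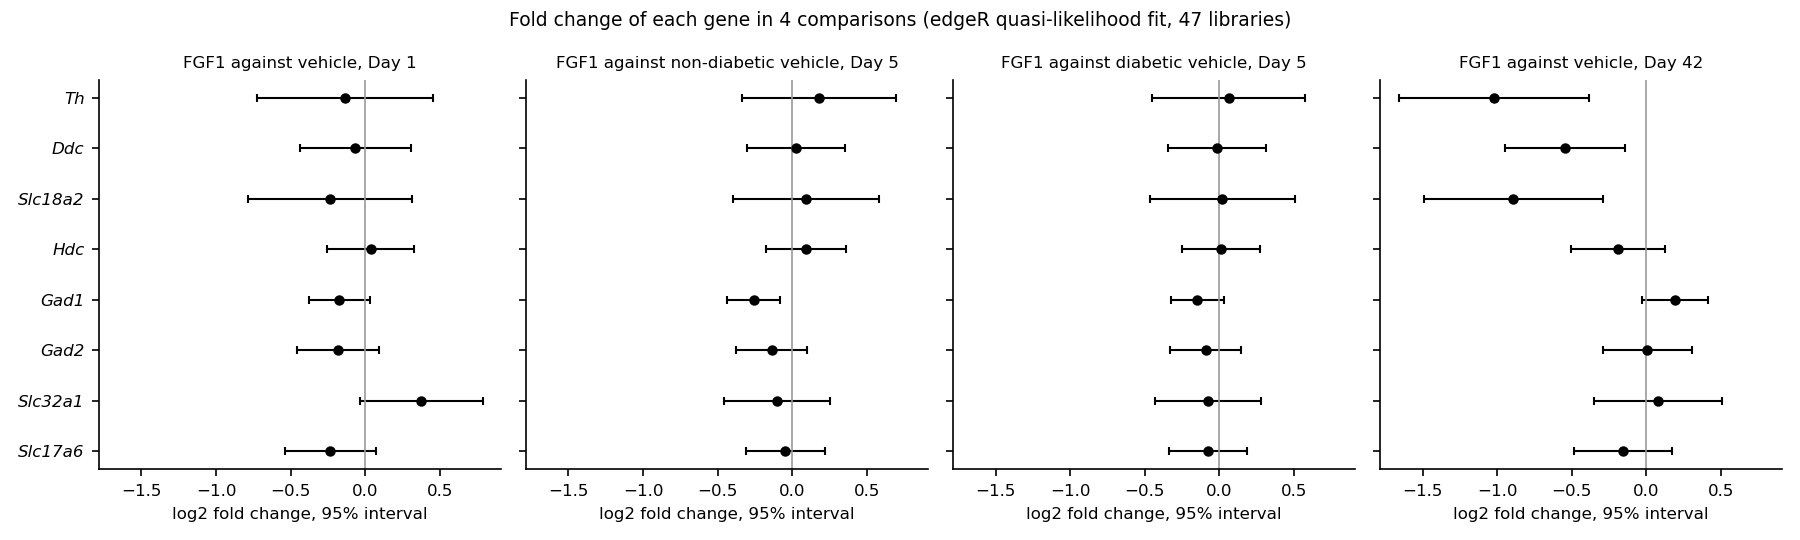
Log2 fold change of each gene with its 95% interval, in 4 comparisons of FGF1 with vehicle from 1 edgeR fit. On Day 42 the intervals of Th, Ddc and Slc18a2 lie below 0, and on Day 5 that of Gad1 against vehicle labelled non-diabetic does, but none passed after adjustment over all genes. The intervals rest on a spread shared by all 7 groups.

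On Day 5, Gad1 was lower after FGF1 than in vehicle labelled non-diabetic, without passing after adjustment. The 9 FGF1-treated mice lay at 270.1 to 330 CPM (median 300.5), all below the vehicle median of 374. The 7 vehicle-treated mice had 255, 330, 374, 344, 409, 399.5 and 382 CPM, so 6 of them lay above every FGF1-treated mouse and replicate 1 lay below all of them. The log2 fold change was -0.26 (SE 0.088, interval -0.43 to -0.080, unadjusted p = 0.0054, adjusted p = 0.086). Without vehicle replicate 1 it was -0.32 (adjusted p = 0.016), and Gad1 also passed with sample quality weights in limma (-0.27, adjusted p = 0.0013), with Day 5 fitted alone (-0.25, adjusted p = 0.040) and after the correction for transcript GC (-0.26, adjusted p = 0.036). Against the vehicle-treated mice labelled diabetic, which lay at 232 to 393 CPM, the log2 fold change was -0.15 (interval -0.33 to 0.030, adjusted p = 0.34). Markers of the striatum, where most neurons make GABA, moved with Gad1 against vehicle labelled non-diabetic. None of the 7 passed after adjustment, but 6 had an unadjusted p under 0.05, where 16.5% of all genes did, and their median log2 fold change was -0.72. Their summed level was 175 to 342 CPM after FGF1, 184 to 472 CPM in vehicle labelled non-diabetic and 181 to 382 CPM in vehicle labelled diabetic, against which 0 of 7 had an unadjusted p under 0.05 and the median was -0.31. Their part in the difference of Gad1 was not tested.

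The other GABA synthesis gene, Gad2, was at 321 to 381 CPM after FGF1 and at 295 to 426 CPM in vehicle labelled non-diabetic, with a log2 fold change of -0.14 (interval -0.38 to 0.098). Because a ratio within a library does not depend on scaling, 5 ratios of members were compared in 5 contrasts by two-sided exact permutation tests. The Gad1 to Gad2 ratio was 0.839 to 0.984 in vehicle labelled non-diabetic (median 0.898) and 0.789 to 0.912 after FGF1 (median 0.826). The difference was -0.11 on the log2 scale (n = 9 and 7, exact permutation p = 0.012), and after adjustment over the 25 tests p = 0.30 (exact permutation test). In vehicle labelled diabetic the ratio had a median of 0.840, and FGF1 differed from that group by -0.051 (exact permutation p = 0.20). The other ratios (Th to Ddc, Hdc and Th to Slc18a2, Slc32a1 to Slc17a6) had exact permutation p above 0.05 in all 5 contrasts.

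No member passed on Day 5, where 4.65% of all genes passed against vehicle labelled non-diabetic (1.54% with the threshold on the fold change) and 9.21% against vehicle labelled diabetic (2.85%). At an unadjusted p under 0.05 the count was 1 of 8 (Gad1) and 0 of 8, against 16.5% and 21.8% of all genes, and DESeq2 called none. Th was at 36.2 to 76.0 CPM after FGF1, within the 24.5 to 98.1 CPM of vehicle labelled non-diabetic. The intervals of the Day 5 fold changes of Th (-0.34 to 0.69) and Slc18a2 (-0.40 to 0.58) still allow changes of over 0.5 in log2. Those of Hdc (-0.17 to 0.36), Ddc (-0.30 to 0.36) and Slc17a6 (-0.31 to 0.22) do not. The 2 vehicle groups of Day 5 differed by at most 0.12 in log2 in any member, and no member and 0% of all genes passed, with 0 of 8 members and 1.36% of all genes at an unadjusted p under 0.05.

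On Day 42, the 3 genes of dopamine synthesis and monoamine loading were lower in FGF1-treated mice, without passing after adjustment. Th was at 31.8, 25.5, 23.4, 11.5 and 10.9 CPM in the FGF1-treated mice and at 66.1, 57.0, 18.1, 19.0 and 50.7 CPM in the vehicle-treated mice. The groups overlapped, with 2 FGF1-treated mice below all vehicle-treated mice and 3 vehicle-treated mice above all FGF1-treated mice. The log2 fold change of Th was -1.02 (SE 0.32, interval -1.66 to -0.38, unadjusted p = 0.0023, adjusted p = 0.41). As for each gene of this fit, the SE, interval and p rest on a spread shared by all 7 groups. The SD of log2(CPM + 0.5) of Th was 0.69 after FGF1 and 0.89 after vehicle on Day 42. In the groups of Days 1 and 5 it was 0.27 to 0.64.

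Slc18a2 was at 73.5, 32.7, 35.7, 31.2 and 14.5 CPM after FGF1 and at 159, 65.2, 42.3, 37.5 and 46.9 CPM after vehicle. Its 4 lower FGF1-treated mice lay below all vehicle-treated mice, while FGF1 replicate 1 lay above 4 of the 5 vehicle-treated mice. The log2 fold change was -0.89 (SE 0.30, interval -1.49 to -0.29, unadjusted p = 0.0044, adjusted p = 0.48). Without FGF1 replicate 1 it was -1.29 and passed (adjusted p = 0.041), and without vehicle replicate 1, the highest of all 47 mice, it was -0.34 (adjusted p = 0.95).

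Ddc was at 87.0, 57.6, 62.4, 47.3 and 32.8 CPM after FGF1 and at 140.2, 95.1, 63.2, 52.2 and 70.7 CPM after vehicle. The groups overlapped in the middle, with 2 FGF1-treated mice below all vehicle-treated mice and 2 vehicle-treated mice above all FGF1-treated mice. The log2 fold change was -0.55 (SE 0.20, interval -0.95 to -0.15, unadjusted p = 0.0085, adjusted p = 0.57), and -0.28 without vehicle replicate 1. With limma and sample quality weights, the values were -0.32 for Th, -0.43 for Slc18a2 and -0.23 for Ddc (adjusted p = 0.96 for each). A two-sided exact permutation test of each gene on its own gave p = 0.10 for Th, 0.14 for Slc18a2 and 0.16 for Ddc, where 5 mice against 5 can reach 0.0079.

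The other 5 members gave log2 fold changes of -0.19 to 0.19 on Day 42. Hdc was at 18.1 to 36.3 CPM after FGF1 and 20.8 to 44.6 CPM after vehicle, a log2 fold change of -0.19 (interval -0.50 to 0.12). The log2 ratio of Hdc to Slc18a2 was higher by 0.67 after FGF1, which did not pass (n = 5 and 5, exact permutation p = 0.18), so a difference between the histamine and dopamine genes was not shown. Gad1 was at 487 to 560.2 CPM after FGF1, all 5 mice above the vehicle median of 456, with a log2 fold change of 0.19 (interval -0.032 to 0.41). On this day 0% of all genes passed, while 31 genes passed without FGF1 replicate 1 and 1 without FGF1 replicate 2. In all, 3 of 8 members were lower at an unadjusted p under 0.05, against 2.39% of all genes, and DESeq2 and limma called none after adjustment.

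Beside these values, the dopamine transporter Slc6a3 was at 81.0, 35.4, 6.23, 5.90 and 5.55 CPM in the FGF1-treated and at 192, 132, 9.59, 31.8 and 42.8 CPM in the vehicle-treated mice of Day 42, the order of the mice for Th in each group. Its log2 fold change was -1.59 (SE 0.58, unadjusted p = 0.0084, adjusted p = 0.57), larger than those of the 3 members. The same mouse, vehicle replicate 1, was highest for Slc6a3, Th, Ddc and Slc18a2. The summed level of the 4 measured markers of midbrain dopamine neurons was 84.4 to 266 CPM after FGF1 and 115 to 482 CPM after vehicle on this day. Markers of the striatum ran the other way, at 210.3 to 546 CPM after FGF1 and 194 to 228 CPM after vehicle, and 5 of 7 had an unadjusted p under 0.05, where 5.46% of all genes did. All 5 measured markers of cortex, hippocampus and amygdala had one too and were higher, with sums of 77.8 to 1046 CPM after FGF1 and 90.4 to 183 CPM after vehicle. Adora2a of the striatum (2.19, adjusted p = 0.33) and Tbr1 of the cortex (1.61, adjusted p = 0.27), named after their values were seen, were among these. Of 17 hypothalamic markers, 3 had an unadjusted p under 0.05, and all 3 were lower, namely Agrp (-1.34), Cartpt (-0.62) and Npy (-0.57), where 2.39% of all genes were lower at that threshold. The summed level of the hypothalamic markers was 559 to 1389 CPM after FGF1 and 958 to 1437 CPM after vehicle. The part of these markers in the differences of the members was not tested.

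Whether the FGF1 effect differed between days was tested as a difference of the contrasts. None of the 8 passed, where 26.6% of all genes passed for Day 5 against Day 1, 0.942% for Day 42 against Day 5 and 25.5% for Day 42 against Day 1. For Day 42 against Day 5, 4 of 8 had an unadjusted p under 0.05, against 9.98% of all genes. They were Th (-1.20, SE 0.41, adjusted p = 0.18), Slc18a2 (-0.98, SE 0.38, adjusted p = 0.30), Ddc (-0.57, SE 0.26, adjusted p = 0.42) and Gad1 (0.45, SE 0.14, adjusted p = 0.13). For Day 42 against Day 1, these were 2 of 8, Th (-0.89, SE 0.44, adjusted p = 0.13) and Gad1 (0.36, SE 0.15, adjusted p = 0.069), below the 36.4% of all genes, and for Day 5 against Day 1 there were 0 of 8, against 37.1%. Gad1 passed for Day 42 against Day 1 with DESeq2 (0.42, adjusted p = 0.031) and after the correction for transcript GC (0.35, adjusted p = 0.044).

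Whether members of 1 transmitter system vary together from mouse to mouse was examined on the deviations from the group means of log2(CPM + 0.5), over 28 pairs of members and 47 mice, with 100000 permutations of mice within groups. After adjustment over the 28 pairs, 10 pairs passed 0.05 by Pearson's r, 5 positive and 5 negative, and 7 of these kept 1 sign on all 3 days. Th and Ddc had r = 0.84 (rho = 0.73), Ddc and Slc18a2 r = 0.92 (rho = 0.80) and Th and Slc18a2 r = 0.72 (rho = 0.60). The adjusted permutation p for the r of each was 7e-05, from the smallest p of 1e-05 that the permutations can give. Without the 2 mice farthest from the median of the first gene, r was 0.83, 0.89 and 0.69. Hdc, whose product makes histamine, an amine that VMAT2 loads as it does dopamine, had r = 0.19 with Slc18a2 (rho = 0.065, adjusted permutation p = 0.48).

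The r values of the dopamine genes were high on Days 5 and 42 and not on Day 1, a difference between days that was not tested. On Day 5 (23 mice) the r values were 0.95 for Th and Ddc, 0.96 for Ddc and Slc18a2 and 0.97 for Th and Slc18a2, and on Day 42 (10 mice) they were 0.86, 0.97 and 0.77. On Day 1 (14 mice) they were -0.19, 0.18 and -0.68. Slc6a3 was at 5.15 to 17.1 CPM in all mice of Day 1 but at 12.5 to 165 CPM on Day 5. The r of Slc6a3 with Th, Ddc and Slc18a2 was 0.94, 0.89 and 0.92 on Day 5, 0.84, 0.79 and 0.77 on Day 42, and 0.071, 0.36 and 0.11 on Day 1. As a description over the 14123 genes with a mean of at least 1 CPM, Slc6a3 was the second gene most like Th (r = 0.83, rho = 0.73), after Ddc and before Ret, the receptor for GDNF-family factors (r = 0.81, rho = 0.73). Ret was also among the 3 genes most like Ddc (r = 0.85, rho = 0.77) and Slc18a2 (r = 0.80, rho = 0.67), and Cnpy1 was the second most like Slc18a2 (r = 0.83, rho = 0.78).

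**Figure D3:**
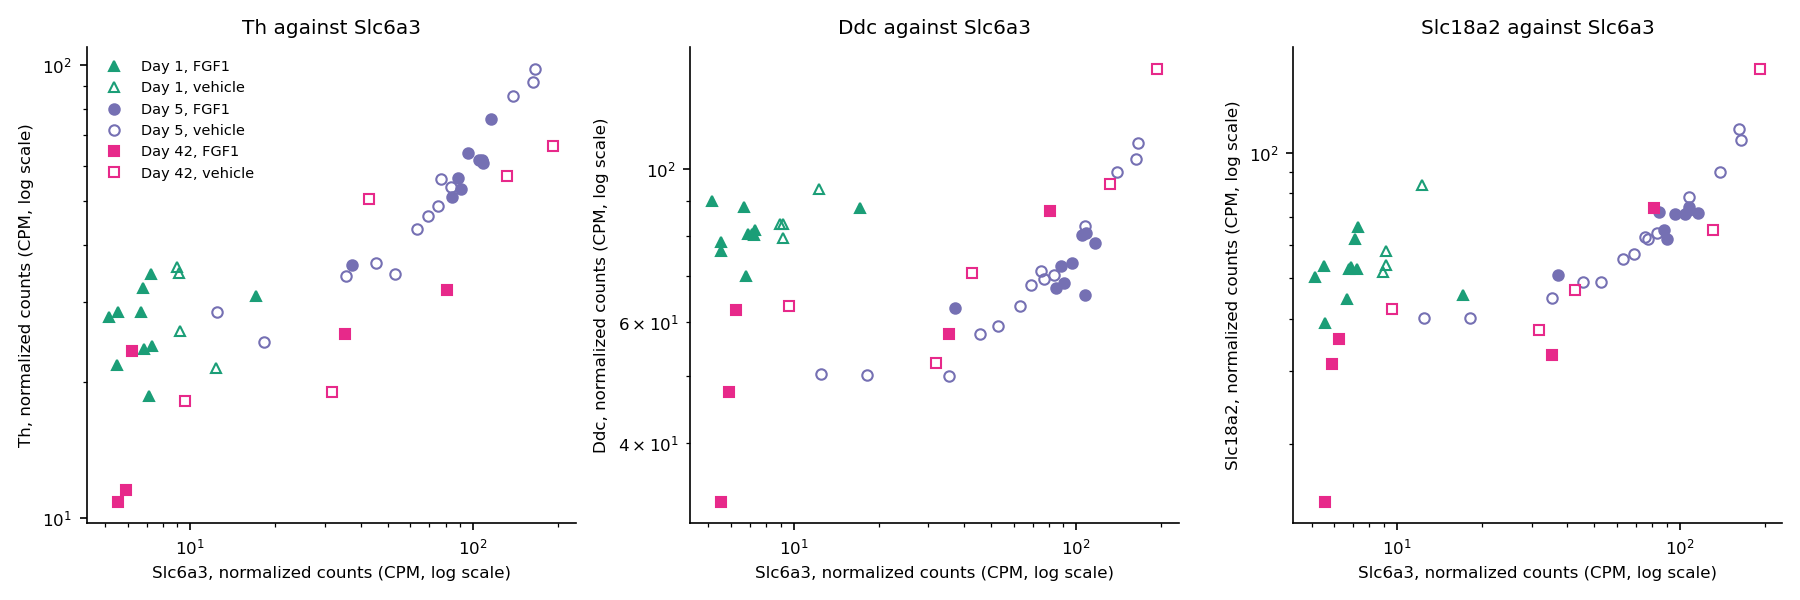
Normalized counts (CPM, both axes log scale) of Th, Ddc and Slc18a2 against the dopamine transporter Slc6a3, with 1 point per mouse (filled, FGF1; open, vehicle) by day. The mice of Day 5 form a rising line in each panel (r of 0.94, 0.89 and 0.92 within groups), while those of Day 1 lie at the left, at Slc6a3 levels of 5.15 to 17.1 CPM, without one.

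Gad1 and Gad2 varied together with r = 0.73 (rho = 0.65, adjusted permutation p = 7e-05) and kept that sign on each day, at 0.75, 0.93 and 0.70 on Days 1, 5 and 42. The vesicular GABA transporter Slc32a1, which works in the same neurons, had r = 0.061 with Gad1 and -0.17 with Gad2 over all mice (adjusted permutation p = 0.74 and 0.50). By day these were opposite: 0.86 and 0.85 on Day 5, -0.69 and -0.73 on Day 1, and 0.014 and -0.16 on Day 42. Slc32a1 and the glutamate transporter Slc17a6 had r = -0.56 (rho = -0.58, adjusted permutation p = 0.0014) and were negative on each day, at -0.39, -0.74 and -0.71. Th and Gad1 were also negative on each day, at -0.70, -0.64 and -0.50 (r = -0.58 over all mice, rho = -0.54, adjusted permutation p = 0.0028). The genes most like Gad1 were Slc5a7, the choline transporter of cholinergic neurons (r = 0.84, rho = 0.85), Plppr1 (r = 0.83, rho = 0.78) and Lhx8 (r = 0.78, rho = 0.65). Those most like Gad2 were Unc5d (r = 0.89, rho = 0.85), the GABA-A receptor subunit Gabrg1 (r = 0.88, rho = 0.80) and Cadm1 (r = 0.87, rho = 0.82).

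**Figure D4:**
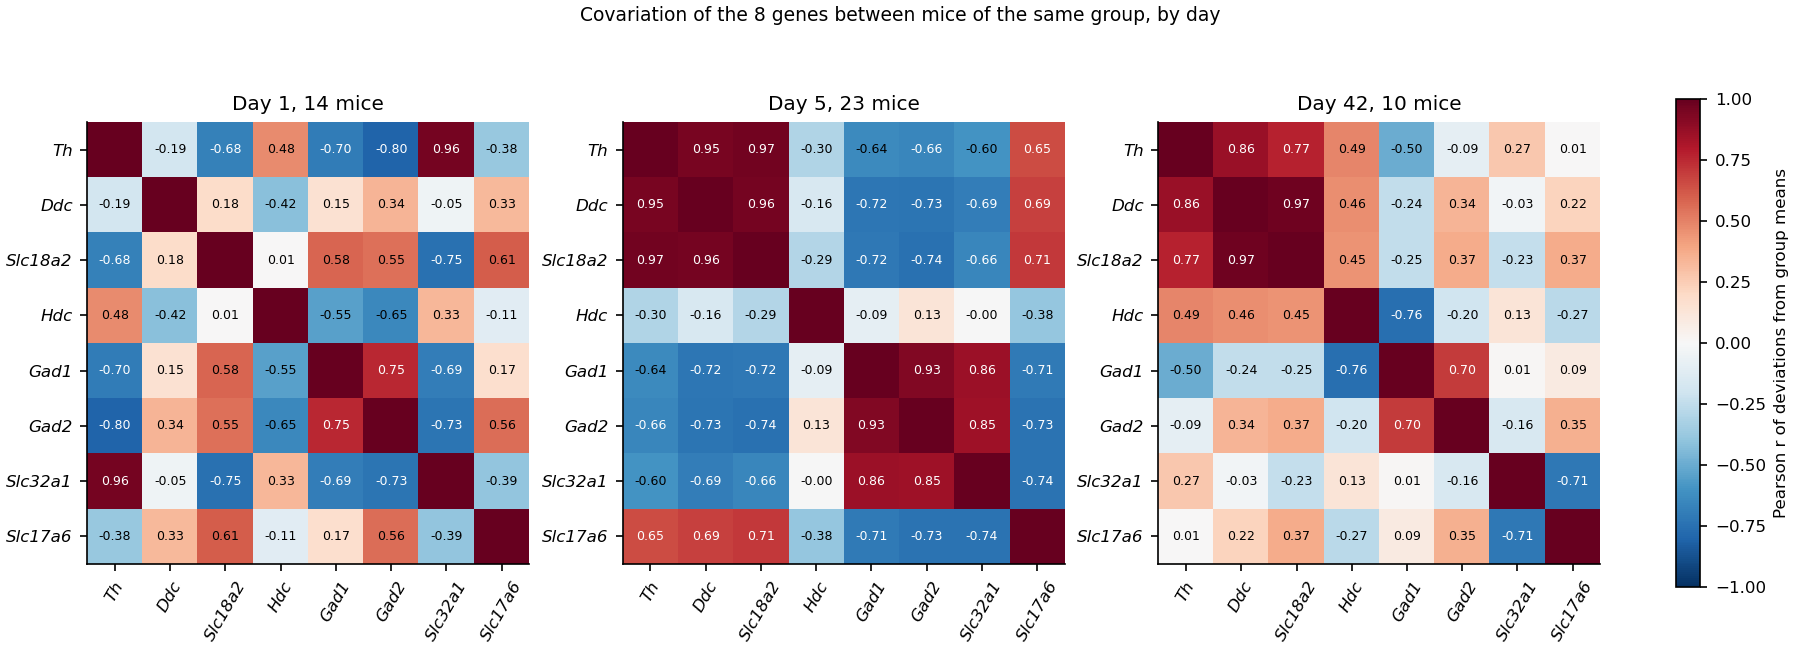
Pearson's r of the deviations from group means for each pair of the 8 genes, on Day 1 (14 mice), Day 5 (23 mice) and Day 42 (10 mice), with red for positive and blue for negative. On Day 5 the dopamine genes and the GABA genes form 2 blocks with negative r between them, while on Day 1 Th goes with Slc32a1 (0.96) and against Slc18a2 (-0.68).

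The change of sign of Slc32a1 between days went with a property of the libraries. Slc32a1 has the most GC-rich transcript of the 8 members, at 61.9% GC, above 98.2% of all genes with a value, while Slc17a6 (42.9%) and Gad2 (44.1%) have the lowest. For each library, the median deviation of the genes in the highest of 20 GC bins (about 61.2% GC) minus that in the lowest (about 38.3%) gave a GC trend. It ran from -0.86 to 0.91 in log2 on Day 1 and from -1.03 to 0.64 on Day 42, but only from -0.13 to 0.16 on Day 5. Deviations of Slc32a1 followed this trend with r = 0.85 on Day 1 and 0.79 on Day 42, and those of Gad2 with r = -0.89 and -0.70. Th followed it with r = 0.91 on Day 1 but 0.31 on Day 42, and on Day 5 all r were between -0.27 and 0.16. After correction of each deviation for the trend, an alternative chosen after seeing the data, r was 0.58 for Gad1 and Slc32a1, 0.72 for Gad2 and Slc32a1 and 0.93 for Th and Slc18a2 (adjusted permutation p = 0.0018, 7e-05 and 7e-05), and -0.32 for Slc32a1 and Slc17a6 (adjusted permutation p = 0.088). What made the trend differ between libraries was not tested.

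**Figure D5:**
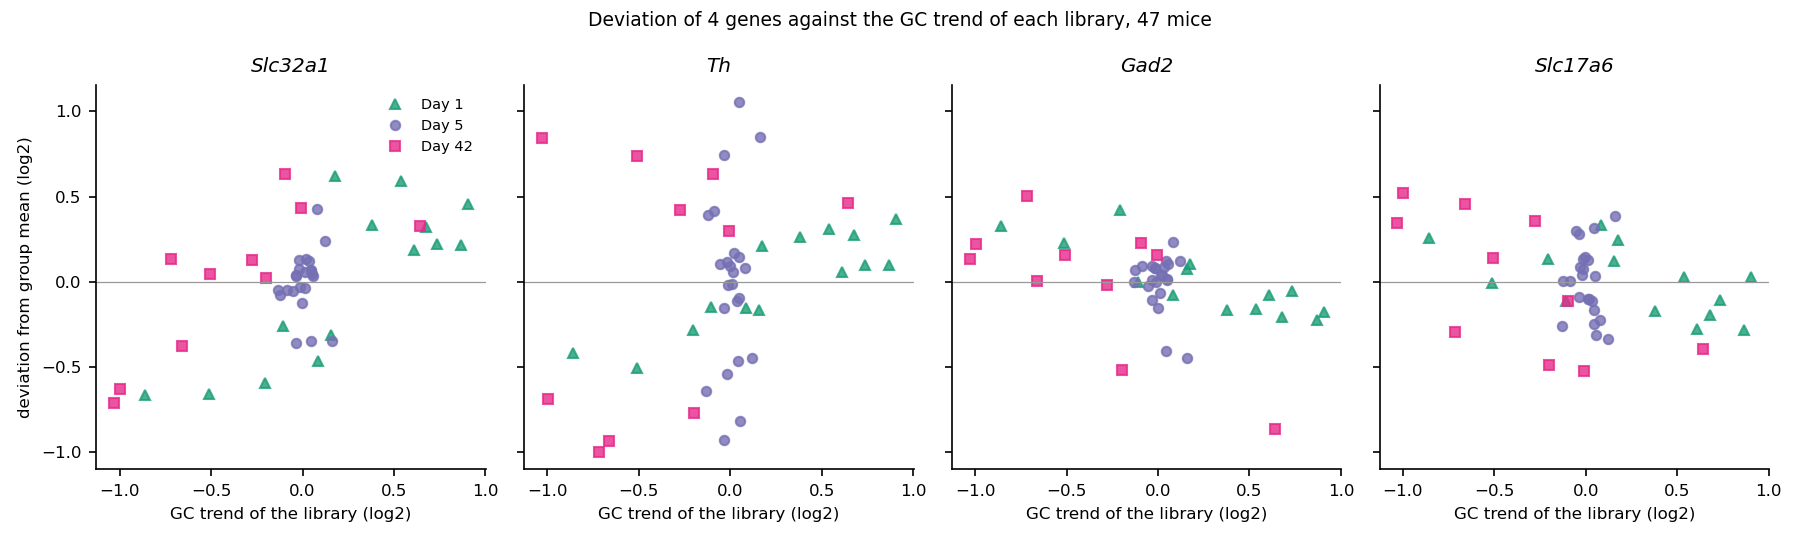
Deviation of Slc32a1, Th, Gad2 and Slc17a6 from the group mean of log2(CPM + 0.5) against the GC trend of each library (log2, GC-rich minus GC-poor genes), with 1 point per mouse by day. Slc32a1 rises and Gad2 falls along the trend on Days 1 and 42, and the mice of Day 5 stay within -0.13 to 0.16 on the horizontal axis.

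The genes most like the other members were, for Hdc, Prph, which encodes peripherin (r = 0.85, rho = 0.78), Nr5a1, the factor SF-1 of the ventromedial nucleus (r = 0.80, rho = 0.74), and Hmcn2 (r = 0.74, rho = 0.73). For Slc32a1 they were Nrxn2 (r = 0.88, rho = 0.81), Slc16a11 (r = 0.88, rho = 0.85) and Abcb9 (r = 0.87, rho = 0.79), which on Day 5, where the GC trend was small, had r of 0.17, 0.35 and 0.56. For Slc17a6 they were Plcb4 (r = 0.93, rho = 0.94), Ddah1 (r = 0.89, rho = 0.88) and Mcf2 (r = 0.88, rho = 0.86), and Plcb4 stayed at 0.87, 0.95 and 0.95 on Days 1, 5 and 42. Mice of a day share their preparation.

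Among genes that remove, recycle or sense the same transmitters, some passed the test on Day 1. Of 16 measured genes of the glutamate list, 1 rose and 7 fell, against 45% of all genes in either direction. Glul, the glutamine synthetase of astrocytes, fell by 1.46 in log2 (SE 0.081, adjusted p = 1.3e-19), the glutamine transporter Slc38a2 rose by 0.73 and the vesicular transporter Slc17a8 had -0.62. Of 15 measured genes of the GABA list, 1 rose and 5 fell. The GABA transporters Slc6a13 (-2.71, SE 0.32, adjusted p = 1.5e-09) and Slc6a11 (-0.86) fell, and the factor Dlx5 rose by 0.65. Of 17 measured genes of the catecholamine list, 3 rose and 6 fell, led by the dopamine receptor Drd1 (1.07), Gch1, which makes the cofactor of tyrosine hydroxylase (0.96, SE 0.19, adjusted p = 5.3e-05), and the monoamine oxidase Maob (-0.81). Of 6 measured genes of the histamine list, the receptor Hrh1 rose (1.08, SE 0.12, adjusted p = 4.8e-10) while Slc22a3 (-0.51) and Hnmt, which inactivates histamine (-0.50), fell. Markers of non-neuronal cells also changed on Day 1. Of 7 astrocyte markers, one of which (Slc1a3) is also on the glutamate list, 4 fell and 2 rose, led by Gfap (2.81), Agt (-1.34) and Gja1 (-0.77), and their sum was 3668 to 4654 CPM after FGF1 and 3102 to 3367 CPM in vehicle. Of 6 oligodendrocyte markers 5 fell, with sums of 2241 to 4064 CPM after FGF1 and 3568 to 5225 CPM in vehicle, and of 3 measured choroid plexus markers Clic6 fell (-1.31). Of 6 microglia markers 5 rose and 1 fell, led by C1qa (1.15), Tmem119 (1.15) and Aif1 (0.88), with sums of 143 to 209 CPM after FGF1 and 109.7 to 139 CPM in vehicle. Of 6 measured markers of tanycytes and ependymal cells 1 rose, Vim (3.31), and 3 fell, led by Ccdc153 (-2.33) and Col23a1 (-1.07). Of 6 markers of endothelium and pericytes Flt1 rose (0.63) and Slco1a4 (-0.44) and Rgs5 (-0.39) fell, and of 5 markers of oligodendrocyte precursors Gpr17 (-1.07) and Pdgfra (-0.49) fell. Their part in the counts of these lists was not tested.

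The vesicle proton pump drives all 3 transporters among the members. On Day 1, 13 of 24 measured genes of the pump and of vesicle proteins fell and none rose, where 45% of all genes passed in either direction and 21.6% fell, with a median log2 fold change of -0.16 against 0.0067 for all genes. The largest were Sv2b (-0.50), the pump accessory gene Atp6ap2 (-0.36) and Synpr (-0.35). The summed level of the 10 pan-neuronal markers was 4882 to 5891 CPM after FGF1 and 5785 to 6729 CPM in vehicle on that day, and its part in these counts was not tested. The 4 decarboxylases among the members all need pyridoxal phosphate. Of 6 measured genes for its supply or for related decarboxylases, Odc1 (0.83), Pdxk, the pyridoxal kinase (0.35), and Plpbp (0.16) rose and Gadl1 (-0.86) fell. Of 5 measured genes of other transmitters, the vesicular acetylcholine transporter Slc18a3 rose by 1.45 (SE 0.43, adjusted p = 0.0049).

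On Day 5, where 4.65% and 9.21% of all genes passed against the 2 vehicle groups, a few genes of these lists did. Against vehicle labelled non-diabetic, the GABA genes that rose were Slc6a13 (1.02, SE 0.30, adjusted p = 0.038) and the GABA transaminase Abat (0.20, SE 0.046, adjusted p = 0.0049). The glial glutamate transporter Slc1a3 (0.23) was the 1 glutamate gene to pass. Atp6v1b2 (-0.14) of the vesicle list passed, and Csad (0.42) of the pyridoxal phosphate list rose. No gene of the catecholamine or histamine lists or of other transmitters passed. Aldh1a1, a marker of a subset of midbrain dopamine neurons, had fallen on Day 1 (-0.58, adjusted p = 0.021) and passed on Day 5 with a log2 fold change of 0.62 (SE 0.19, adjusted p = 0.042), with FGF1-treated mice at 133 to 165 CPM and vehicle-treated mice at 65.7 to 162 CPM. In the same mice of Day 5, Slc6a3 ran from 37.2 to 116 CPM after FGF1 and from 18.2 to 165 CPM in vehicle. Against vehicle labelled diabetic, the comparison that shares the FGF1-treated mice, Abat had 0.22, Slc1a3 0.22, Slc25a12 -0.15 and Csad 0.47, and 4 of 24 vesicle genes fell, led by Vamp2, Atp6v1g1 and Syp. Of the 7 astrocyte markers, Slc1a3 among them, 4 rose and none fell in each of these comparisons, led by Gfap, Aqp4 and Gja1. Their sums were 3156 to 3429 CPM after FGF1 and 2572 to 2824 CPM in vehicle. Against vehicle labelled non-diabetic and diabetic, 3 and 4 of 6 oligodendrocyte markers and 3 and 5 of 6 microglia markers rose. In each, 2 of 5 markers of oligodendrocyte precursors (Bmp4 and Gpr17), Vim of tanycytes and ependymal cells and Pecam1 of the endothelium rose. No marker of these lists fell past the threshold. The part of these cell types in these counts was not tested. On Day 42 and between the vehicle groups, no gene of any of these lists passed. Of the catecholamine list, 6 of 17 had an unadjusted p under 0.05 on Day 42, against 5.46% of all genes, and these are named after their values were seen. Slc6a3 (-1.59), Foxa1 (-0.96), the vesicular transporter Slc18a1 (-0.79), Ret (-0.68) and Gch1 (-0.49) were lower, and Drd1 (1.10), which is also on the striatum list, was higher.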

How the data were processed

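Hypothalamic mRNA of 47 mice was sequenced in stranded libraries. The authors aligned reads with STAR and deposited 1 table of raw counts per gene, without normalization; the counting program is not given in the sources used here. Their notes name the build GRCh38 (release 77), a human name, so genes were matched by symbol and coordinates taken from GENCODE GRCm38. The authors' methods also name quantile normalization and DESeq2. Members and gene lists were chosen with earlier results of these data known.

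All 14221 genes and 47 libraries entered 1 fit in edgeR 4.0.16 (R 4.3.3; TMM, quasi-likelihood F test, 7 group means; filterByExpr removed no gene), with 5 contrasts within days and 3 differences between days. Benjamini-Hochberg adjustment covered all genes of a contrast, with a threshold of 0.05, and with an absolute log2 fold change above 0.5 added. The spread between mice was shared over all 7 groups in this 1 fit. With each day fitted alone, 2976 genes passed on Day 5 against vehicle labelled non-diabetic, where the shared fit gave 661. CPM used TMM-scaled library sizes. The 40 single-gene and 25 ratio comparisons used two-sided exact permutation tests over mice, with 0.5 added before log2. On simulated data of these 14221 genes, the Day 42 contrast recovered 56 of 100 genes changed by 0.5 in log2 and 94 of 100 changed by 1. The simulation gave each gene the same spread in all groups, without the GC trend or covariation between genes. It therefore does not give the chance of finding such changes in the mice of Day 42. Named genes were the 8 members, the 3 genes most like each and up to 3 genes per list with the largest change. Alternatives used DESeq2 1.42.0, limma 3.58.1, other scalings and filters, and each mouse left out. Mice are the replicates, and replicate numbers follow accession order within a group. Some genes of the lists are not reported here.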

Additional observations from a re-analysis of the deposited data

Results flagged for a closer look

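Of 91 sets of values searched for a lone mouse (Dixon's test at 95%), 4 held one, and chance flags about 1 in 20. Gad1 was at 608 CPM in vehicle replicate 2 of Day 1, where the nearest of the other 3 mice was at 509.7 CPM. Gad2 was at 295 CPM in replicate 1 of the Day 5 vehicle group labelled non-diabetic, where the nearest of the other 6 was at 391 CPM; the same mouse had the lowest Gad1 of its group. Slc18a2 was at 159 CPM in vehicle replicate 1 of Day 42, where the nearest of the other 4 was at 65.2 CPM. The log2 ratio of Th to Ddc was -0.79 in FGF1 replicate 4 of Day 5, where the nearest of the other 8 was at -0.41.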

How the results depend on the processing

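No paired analysis was possible because the labels give no replicate number shared by mice of different groups. The count of members past an adjusted p of 0.05 moved from 0 to 1 on Day 1, under both call rules, when scaled to the pan-neuronal markers (Slc32a1). It moved to 1 on Day 5 against non-diabetic vehicle (Gad1) with limma voom and sample quality weights, with each day fitted alone and after correction for transcript GC, and to 1 for Day 42 minus Day 1 with DESeq2, with DESeq2 size factors in edgeR and after the GC correction (Gad1) and with the pan-neuronal scaling (Th, -1.09, adjusted p = 0.049). The GC corrections were chosen after seeing the data. Leaving out 1 mouse gave counts of 0 to 1 on Day 1 (vehicle replicate 4), Day 5 (non-diabetic vehicle replicate 1) and Day 42 (FGF1 replicate 1, without which 31 of all genes passed), of 0 to 1 for Day 42 minus Day 5 (FGF1 replicate 1 of Day 42, Slc18a2 -1.38; non-diabetic vehicle replicate 1 of Day 5, Gad1 0.51), of 0 to 1 for Day 42 minus Day 1 (FGF1 replicate 1 and vehicle replicates 2 and 3 of Day 42, FGF1 replicate 10 of Day 1), and of 0 to 2 for the single-gene permutation tests (non-diabetic vehicle replicate 1 of Day 5). The cause was not tested.

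Directions turned on Day 1 with the pan-neuronal scaling for Th (0.082), Ddc (0.15), Gad1 (0.047) and Gad2 (0.038), and for Hdc with DESeq2 (-0.016), DESeq2 size factors (-0.013), quantile normalization (-0.041) and voom (-0.015). Slc17a6 turned on Day 5 with the pan-neuronal scaling (0.011), and Hdc (0.038) and Gad2 (-0.054) on Day 42 with voom. With 1 mouse left out, log2 fold changes ran on Day 1 from -0.019 to 0.076 for Hdc and 0.19 to 0.60 for Slc32a1. On Day 5 against non-diabetic vehicle they ran from -0.042 to 0.17 for Ddc, -0.32 to -0.22 for Gad1 and -0.097 to 0.011 for Slc17a6. On Day 42 they ran from -0.16 to 0.14 for Gad2, -0.069 to 0.26 for Slc32a1, -1.29 to -0.34 for Slc18a2, -1.24 to -0.80 for Th and -0.75 to -0.28 for Ddc. Differences between days ran from 0.27 to 0.43 (Gad1, Day 42 minus Day 1), 0.36 to 0.52 (Gad1, Day 42 minus Day 5) and -1.38 to -0.43 (Slc18a2, Day 42 minus Day 5). Over all alternatives on Day 42, adjusted p ran from 0.099 to 1.0 for Th and Ddc and from 0.041 to 1.0 for Slc18a2. Among alternatives other than leaving out a mouse, 134 counts and 316 single values stayed on their side of the threshold with their direction. The library with 1243280 counts, FGF1 replicate 1 of Day 1, held as few as 38 counts of a member.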
